A study of Mus musculus with 24 samples.

Results

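The kinesin motor genes of the embryonic mouse head were taken as every probe annotated with a single gene symbol that begins with Kif or Kifc followed by a digit. This gave 36 gene symbols on 75 of the 46643 probes of the array. They were sorted by known role, with earlier results of these data known. The lists held 12 mitotic kinesins with 23 probes, 15 axonal transport kinesins with 37 probes and 9 other symbols with 15 probes. Kif16bos, a non-coding RNA named for its position opposite Kif16b, carries no motor and was kept among the others because the rule goes by symbol. Kif8 is kept by the same rule, but RefSeq lists Kif8 as an older name of the mitotic Kif11, so that the 36 symbols may stand for fewer genes. The heads of (C3H/HeH x 101/H)F1 mouse embryos at embryonic day E8.5, E10.5 and E12.5 (days post coitum) were cut along the midline, and total RNA of each side was hybridised to 1 Illumina array, giving 24 arrays from 12 embryos, 4 at each stage. All embryos shared this F1 background and none is labelled as treated or mutant; the groups are the stages and sides. The labels call the tissue brain. Per the study's methods, Wnt1 and Shh, genes of the midline, were used to check the cut.

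Kinesins are motor proteins that walk along microtubules by hydrolysing ATP. In dividing cells one group of them builds the spindle, moves and aligns chromosomes and organises the midzone at cytokinesis. In neurons another group carries vesicles, mitochondria and cytoskeletal cargo from the cell body down the axon, while cytoplasmic dynein carries cargo back. The embryonic head passes over these stages from a proliferating neuroepithelium to a brain that holds many postmitotic neurons.

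Levels below are quantile normalized signals, averaged over both sides of each head and given as mean ± SD (n = 4 embryos). Ranges are over the 8 arrays of a stage. Each gene was measured by the brightest of its probes, and levels of different genes are not comparable, because they come from different probes. Fold changes (log2FC) are on the scale log2(signal + 119.5), which understates the change of dim genes. A gene was called at an adjusted p under 0.05 (limma, Benjamini-Hochberg over all 46643 probes). In whole tissue, fewer cells of a type and less RNA per cell cannot be told apart.

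The promoters of several members are shown first, to set the letters of both lists side by side. The motif is the cell cycle genes homology region (CHR), searched as TTTGAA or TTCGAA on both strands, known from promoters of genes expressed late in the cell cycle. Bases run from 110 before to 30 after the transcription start of RefSeq (GRCm38.p6), in lower case with CHR matches in capitals. The 6 were picked as examples. Kif1a, a rising gene with a match, is not printed, nor is Kifc5b, a falling gene whose match runs past these bases. The first 4 belong to mitotic kinesins whose levels fell and the last 2 to axonal transport kinesins whose levels rose.
Kif2c (chr4:117178743-117178882, minus strand): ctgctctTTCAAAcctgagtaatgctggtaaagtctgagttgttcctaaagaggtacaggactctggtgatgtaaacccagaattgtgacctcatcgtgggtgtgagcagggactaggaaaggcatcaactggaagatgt
Kif22 (chr7:127042391-127042530, minus strand): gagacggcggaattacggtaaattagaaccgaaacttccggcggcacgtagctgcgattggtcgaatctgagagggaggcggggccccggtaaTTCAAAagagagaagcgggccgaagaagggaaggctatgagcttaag
Kif18b (chr11:102925095-102925234, minus strand): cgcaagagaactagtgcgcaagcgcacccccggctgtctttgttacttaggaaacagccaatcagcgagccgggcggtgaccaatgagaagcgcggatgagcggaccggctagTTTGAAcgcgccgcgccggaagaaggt
Kif4 (chrX:100625955-100626094, plus strand): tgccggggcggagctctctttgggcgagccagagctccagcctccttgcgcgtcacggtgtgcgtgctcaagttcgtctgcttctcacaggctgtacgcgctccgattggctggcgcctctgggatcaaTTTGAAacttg
Kif5c (chr2:49619176-49619315, plus strand): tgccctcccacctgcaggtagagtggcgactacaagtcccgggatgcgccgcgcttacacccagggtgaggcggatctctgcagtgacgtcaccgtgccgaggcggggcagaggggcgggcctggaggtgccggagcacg
Kif21a (chr15:91049922-91050061, minus strand): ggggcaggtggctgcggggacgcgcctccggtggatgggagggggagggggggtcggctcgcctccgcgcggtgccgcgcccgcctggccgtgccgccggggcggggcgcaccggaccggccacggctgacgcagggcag

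RefSeq gave a promoter of 300 bases (250 before and 50 after the start) for 28 of the 36 symbols. No promoter was used for Kif20a among the mitotic kinesins, for Kif13b, Kif21b, Kif5a and Kif5b among the axonal transport kinesins, and for Kif8, Kifc2 and Kifc3 among the others. A CHR match lay in the promoters of 9 of 11 mitotic kinesins (81.8%), of 1 of 11 axonal transport kinesins (9.09%) and of 2 of 6 others (33.3%). Counted in the same way, with a match in any promoter of a gene, the share was 21.7% of all 27025 genes with promoters of this length (19.2% of the 32851 single promoters). All 5 mitotic kinesins with a lower level at E12.5 than at E8.5 held a match. It began at position -103 in Kif2c, at -215 and -17 in Kif22, at 4 in Kif18b, at 20 in Kif4 and at 30 in Kifc5b, counted from 1 at the first transcribed base. Of the 6 rising axonal transport kinesins with a promoter, only Kif1a held a match, in 1 of its starts at -44. The CCAAT box (CCAAT, both strands) is often found beside a CHR. It lay in promoters of 7 of 11 mitotic, 3 of 11 axonal transport and 3 of 6 other symbols, and 41.1% of all genes. E2F sites (TTTCCCGC, TTTGGCGC or TTTCGCGC, both strands) lay in 2 mitotic kinesins, Kif15 and Kif18a, and in none of the axonal transport kinesins. They also lay in 1 of 6 others, Kif16bos, and in 2.12% of all genes. TTCGAA reads the same on both strands, and none of the 3 motifs contains another. These matches are a description of the letters and not of bound sites.

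Before the results, 4 sets of arrays have to be told apart. The second principal component, with 27.4% of the variance, placed the right sides of embryos 1 and 2 of every stage at 20.35 to 31.92, and those of embryos 3 and 4 at -47.24 to -28.38. The left sides lay between -1.2 and 13.05, and their 2 sets overlapped. Values on the left or right side alone are therefore given beside the calls they end. The labels give no array position or scan, so what the sets share was not tested. Markers fixed for neurons, among them Dcx, Mapt and Stmn2, were called higher for 10 of 13 genes in E12.5 versus E8.5. Over all probes 9.84% were called higher. Tubb3 (means 116, 133 and 136 at the 3 stages), Elavl4 (67.2, 83.7 and 60.9) and Nefl had no called change between stages. The summed level of the 13 markers was 392 to 544 at E8.5, 3043 to 5447 at E10.5 and 14881 to 23198 at E12.5. At E8.5 9 of the 13, Dcx among them, were not above the noise limit, and Nefl stayed near 0 at every stage. Markers of other tissues gave signal as well. Erythroid markers summed to 14916 to 60894, 77521 to 94298 and 41341 to 62785, and muscle markers to 844 to 7348, 122 to 171 and 681 to 2697. The 7 neural progenitor markers with a probe summed to 2591 to 3506, 5912 to 9874 and 5597 to 8725. Vim alone had means of 1269, 5015 and 4898. In E10.5 versus E8.5 Vim, Nes, Hes5 and Fabp7, the last with means below 0, were called higher. Sox2, Pax6 and Otx2 had no called change between stages. The part of all these markers in the results below was not tested.

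Many members gave little signal. A probe was counted as above the noise limit at a stage when at least 6 of 8 arrays exceeded the 95th percentile of the size of the negative intensities, a limit of 17.6 to 26.9. At the 3 stages 21, 24 and 23 of the 75 kinesin probes were above it, beside 28.27%, 29.29% and 30.8% of all 46643 probes. The low signal is thus shared with the array as a whole. At some stage 26 of the 75 probes were above it, and so was the brightest probe of 18 of the 36 symbols. Among them were 10 of 15 axonal transport kinesins, 5 of 12 mitotic kinesins and 3 of 9 others. Kif11, the motor that pushes spindle poles apart, Kif15, Kif18a, Kif20a, Kif20b, Kif23 and Kif2b of the mitotic list were above it at no stage, nor was Kif5b, the ubiquitous heavy chain of conventional kinesin. For these genes the arrays give no usable level, and nothing follows about their expression. In the plot of net change against signal, every probe with a change beyond 0.3 on the log2 scale in either direction has a mean level above 70. The constant added before log2 shrinks the change of dim probes, so this pattern was largely fixed by the scale.

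**Figure D1:**
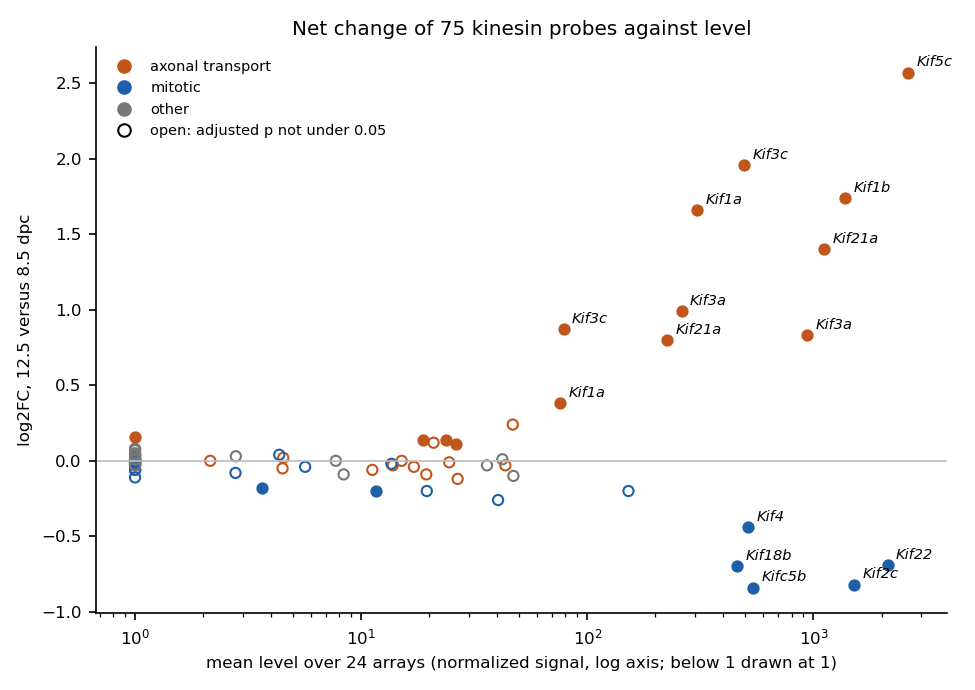
Net log2FC (E12.5 versus E8.5) of the 75 kinesin probes against their mean level over 24 arrays on a log axis, with levels below 1 drawn at 1. Filled points have an adjusted p under 0.05. All large changes sit on the right, where axonal transport kinesins are up to 2.57 above 0 and mitotic kinesins down to -0.84. The constant added before log2 shrinks the changes of dim probes on the left.

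Over the 36 symbols the calls split by role, in lists made with earlier results of these data known. From E8.5 to E10.5 6 genes rose and 0 fell, against 10.7% of all probes called in either direction (4.91% higher, 5.8% lower). From E10.5 to E12.5 6 rose and 5 fell, against 10.4% of all probes (5.92% higher, 4.51% lower). In E12.5 versus E8.5 7 were higher and 5 lower, against 20.8% of all probes (9.84% higher, 11% lower). All 7 net rises were among the 15 axonal transport kinesins and all 5 net falls among the 12 mitotic kinesins, with 0 of the 9 others called in any of these comparisons (at an unadjusted p under 0.05, the 36 symbols gave 8, 15 and 13 genes). The median log2FC of the axonal transport list was 0.04, 0.07 and 0.11 in the 3 comparisons and that of the mitotic list -0.01, -0.12 and -0.13, against -0.0042, -0.0077 and -0.0117 over all probes. On the left sides alone 5, 11 and 12 genes were called, against 10.4%, 9.75% and 19.5% of all probes, and on the right sides alone 2, 7 and 8, against 3.38%, 4.08% and 10.6%. All calls on the right followed the split by role, while on the left Kif1c, an axonal transport kinesin near the noise limit, was called lower in the second step. Without embryo 1 of E12.5 the second step gave 7 calls instead of 11. On stricter lists 7 of 10 axonal transport kinesins were higher and 3 of 8 mitotic kinesins lower in E12.5 versus E8.5. The medians of these lists were 1.11 and -0.05.

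**Figure D2:**
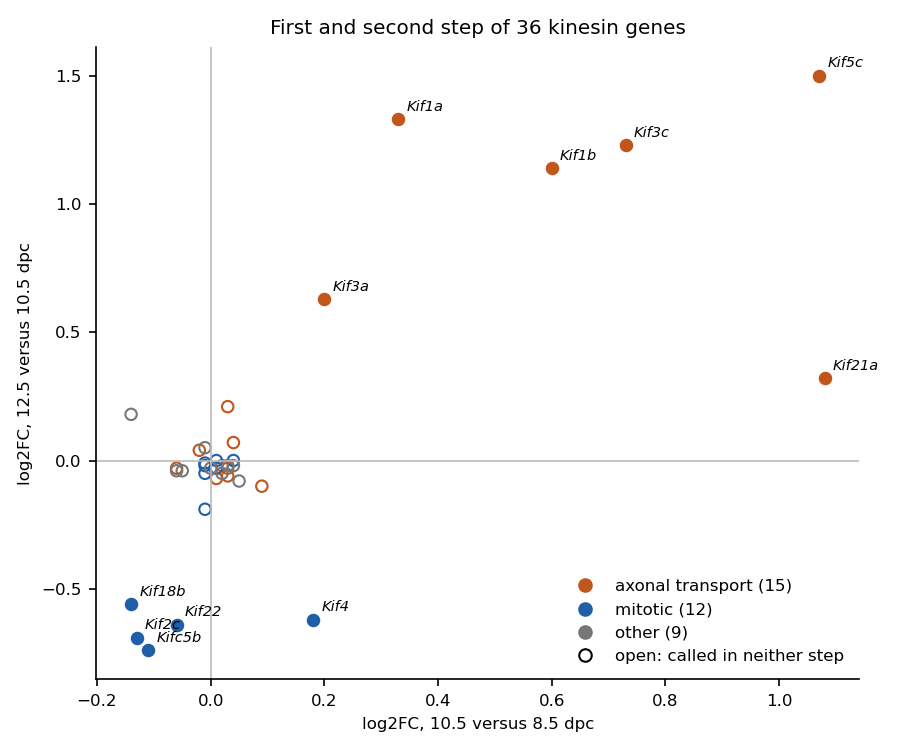
Log2FC of the first step (E10.5 versus E8.5, horizontal) and of the second step (E12.5 versus E10.5, vertical) for the brightest probe of each of 36 kinesin symbols, coloured by role; filled points were called in at least 1 step. The called axonal transport kinesins lie above 0 in both steps and the called mitotic kinesins at the lower edge, while uncalled members lie around the origin; Kif4 alone combines a called rise (0.18) with a called fall (-0.62).

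The most strongly rising member was Kif5c, on chromosome 2, a heavy chain of conventional kinesin that is enriched in neurons. Its level lay between 611 and 906 (median 764) on the arrays of E8.5, between 1342 and 2459 (median 1736) at E10.5 and between 3444 and 7498 (median 4911) at E12.5. The 3 stages did not overlap on any array. Its mean rose from 778 ± 87.6 to 1776 ± 348 and 5329 ± 1436, so that the level at E12.5 was 6.85 times that at E8.5. Kif5c rose in the first step by a log2FC of 1.07 (SE 0.14, adjusted p = 4.12e-06) and in the second by 1.5 (SE 0.14, adjusted p = 2.3e-08). A second, dim Kif5c probe near the noise limit was not called and measured 18.7 ± 3.55, 17.8 ± 4.61 and 15 ± 4.21. The other heavy chains gave little to compare. Kif5a, the neuron-specific heavy chain, had levels of 21.1 ± 5.15, 25.3 ± 7.21 and 32.5 ± 1.63, near the noise limit, and a called net log2FC of 0.11 (adjusted p = 0.0281) that was lost in 12 of 26 alternatives, on either side alone among them (adjusted p = 0.0729 on the left and 0.421 on the right). It was also lost without embryo 1, 3 or 4 of E12.5 or embryo 1 or 2 of E8.5, each taken singly (adjusted p = 0.0543 to 0.134). The 3 probes of Kif5b lay below 0 at every stage.

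The heterotrimeric kinesin, which serves axons and cilia, pairs Kif3a with Kif3b or Kif3c and binds cargo through Kifap3. Kif3c, on chromosome 12, ran from 109 to 197 (median 171) at E8.5, from 237 to 426 (median 339) at E10.5 and from 539 to 1510 (median 970) at E12.5, again with no overlap between stages. Its mean level was 155 ± 30.4, 337 ± 30.9 and 994 ± 357, a final level 6.40 times the first. Kif3c rose in both steps, by 0.73 (SE 0.15, adjusted p = 0.00136) and 1.23 (SE 0.15, adjusted p = 1.9e-06), although the first rise was not called on the right sides alone (log2FC 0.70, adjusted p = 0.251) nor with median scaling (0.68, adjusted p = 0.0817). A second Kif3c probe went the same way, from 27.1 ± 5.31 through 55.9 ± 6.80 to 153 ± 46.2. Kif3a, on chromosome 11, had embryo levels of 715, 884, 534 and 604 at E8.5, of 866, 909, 744 and 660 at E10.5 and of 1924, 1459, 925 and 1049 at E12.5. The embryos of the first 2 stages overlapped and those of the last lay above both. Its log2FC was 0.20 in the first step (adjusted p = 0.701) and 0.63 in the second (SE 0.19, adjusted p = 0.0379), and the second was not called on the right sides alone (0.62, adjusted p = 0.584) nor without embryo 1 of E12.5 (0.44, adjusted p = 0.203). Leaving out embryo 2 of E12.5 or embryo 1, 3 or 4 of E10.5 also ended that call of Kif3a (adjusted p = 0.0601 to 0.138). The net log2FC of 0.83 (SE 0.19, adjusted p = 0.00232) was lost on the right sides alone (0.81, adjusted p = 0.245) and with median scaling (0.80, adjusted p = 0.0656). A dimmer Kif3a probe rose in the second step by 0.71 (adjusted p = 0.000386). Kif3b moved from 36 ± 22.9 to 65.4 ± 36.4 between E8.5 and E12.5 (log2FC 0.24, adjusted p = 0.277), and Kifap3 from 21.7 ± 20.8 to 63.1 ± 46.4 (0.33, adjusted p = 0.295), neither of them called.

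Kif1a and Kif1b, motors known for carrying precursors of synaptic vesicles and, for a Kif1b isoform, mitochondria, both rose. Kif1b, on chromosome 4, lay between 555 and 781 (median 626) at E8.5, between 756 and 1572 (median 1000) at E10.5 and between 1769 and 3252 (median 2531) at E12.5. Only the arrays of the first 2 stages overlapped. The mean of Kif1b went from 640 ± 70.0 through 1050 ± 202 to 2455 ± 458, a rise of 0.60 (SE 0.13, adjusted p = 0.00188) and then of 1.14 (SE 0.13, adjusted p = 6.13e-07), the first not called on the right sides alone (0.64, adjusted p = 0.172). Of the other 6 Kif1b probes, all dim, 2 were called higher in E12.5 versus E8.5 (0.16 and 0.14) and 0 lower. Kif1a, on chromosome 1, was measured at 86.2 to 134 (median 117), 121 to 211 (median 175) and 447 to 850 (median 634). Its rise came late: 0.33 in the first step (SE 0.10, adjusted p = 0.0265) and 1.33 in the second (SE 0.10, adjusted p = 9.74e-10). The first step of Kif1a was lost in 13 of 26 alternatives, either side alone included (adjusted p = 0.126 on the left and 0.381 on the right), and it was lost without embryo 2, 3 or 4 of E8.5 or of E10.5, each taken singly (adjusted p = 0.063 to 0.104).

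Kif21a, on chromosome 15, a motor that restrains microtubule growth and whose mutation in humans impairs the innervation of eye muscles, rose early instead. It lay between 489 and 571 (median 515) at E8.5, between 1035 and 1843 (median 1155) at E10.5 and between 1310 and 2103 (median 1494) at E12.5. The arrays of E8.5 lay below all others, while the later stages overlapped. Kif21a rose in the first step by 1.08 (SE 0.09, adjusted p = 1.84e-08) and in the second by 0.32 (SE 0.09, adjusted p = 0.0261). The second call was lost in 14 of 26 alternatives, either side alone included (0.31 with adjusted p = 0.287 on the left and 0.34 with adjusted p = 0.0927 on the right), and without embryo 1, 3 or 4 of E10.5 or embryo 1 or 4 of E12.5, each taken singly (adjusted p = 0.0545 to 0.156). A second Kif21a probe measured 110 ± 14.8, 283 ± 74.5 and 282 ± 50.5, with a called first step only. The remaining axonal transport kinesins, Kif13a, Kif13b, Kif16b, Kif17, Kif1c, Kif21b, Kif3b and Kif5b, were not called in any step on their brightest probes, whose mean levels stayed below 70. A dimmer Kif13b probe was called lower in the first step and higher in the second (-0.13 and 0.09; levels 18.7, 7.17 and 15.5), and a dimmer Kif13a probe higher in the first step and over the interval (0.14 in both; levels 9.81, 23.2 and 23.1). Both lay in the noise range.

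**Figure D3:**
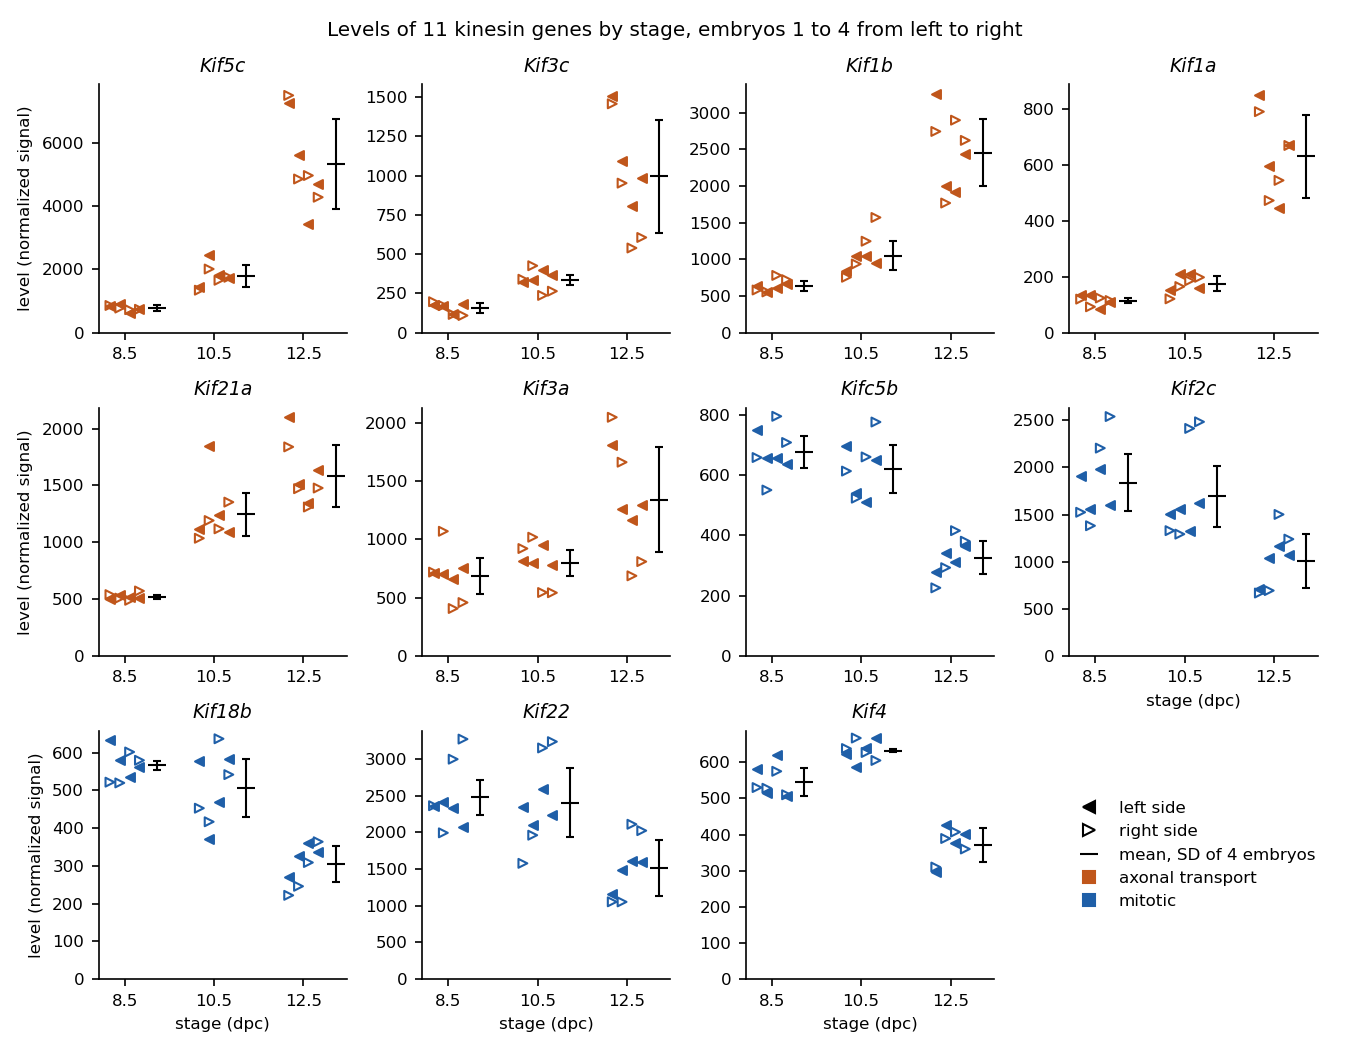
Levels (normalized signal, linear axis from 0) of 11 kinesin genes at E8.5, E10.5 and E12.5. Filled and open triangles are the left and right sides of embryos 1 to 4, in that order, and the bar is the mean and SD of 4 embryos; Kif5c climbs from 778 to 5329 and Kif2c drops from 1838 to 1009, while right sides spread widely for Kif3a, Kif2c and Kif22.

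Kif4 was the only mitotic kinesin called in the first step, and 5 of the 12 fell in the second. Kif2c, on chromosome 4, which takes microtubules apart at kinetochores to correct faulty attachments, had embryo levels of 1717, 1471, 2092 and 2072 at E8.5, of 1417, 1428, 1871 and 2055 at E10.5 and of 686, 864, 1331 and 1154 at E12.5. The embryos of the first 2 stages overlapped and all 4 of E12.5 lay below them. Kif2c fell in the second step by 0.69 on the log2 scale (SE 0.17, adjusted p = 0.00813) after -0.13 in the first (adjusted p = 0.811). The fall was called on the left sides alone (-0.56, adjusted p = 0.00877) but not on the right sides alone (-0.82, adjusted p = 0.251) nor without embryo 1 of E12.5 (-0.54, adjusted p = 0.0562). The net log2FC of Kif2c was -0.82 (SE 0.17, adjusted p = 0.000821) and -0.86 on the right sides alone (adjusted p = 0.122). Kif22, on chromosome 7, a chromokinesin that binds chromosome arms and pushes them from the poles, was next. Its embryo levels were 2365, 2203, 2668 and 2675 at E8.5, 1966, 2031, 2876 and 2740 at E10.5 and 1105, 1273, 1862 and 1812 at E12.5. The last stage again lay below both earlier ones. Kif22 fell in the second step by 0.64 (SE 0.16, adjusted p = 0.00766), with -0.63 on the left sides (adjusted p = 0.000585), -0.64 on the right sides (adjusted p = 0.395) and -0.51 without embryo 1 of E12.5 (adjusted p = 0.0519). Its net log2FC was -0.69 (SE 0.16, adjusted p = 0.00174) and -0.77 on the right sides alone (adjusted p = 0.15).

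Kif18b and Kifc5b fell on both sides. Kif18b, on chromosome 11, which controls the length of astral microtubules, lay between 520 and 633 (median 570) at E8.5, between 370 and 637 (median 506) at E10.5 and between 222 and 364 (median 317) at E12.5. No array of E12.5 reached those of the earlier stages. Kif18b fell in the second step by 0.56 (SE 0.09, adjusted p = 5.16e-05), to 0.54 times the level of E8.5. A dimmer Kif18b probe with levels of 57.6 ± 38.2, 38.2 ± 17.8 and 25 ± 13 was not called. Kifc5b, on chromosome 17, belongs to the minus-end-directed motors that focus spindle poles; it closely resembles Kifc1, a gene not analysed here, and signal from the pair cannot be told apart. Its levels ran from 551 to 796 (median 659), from 512 to 777 (median 632) and from 226 to 416 (median 327). The last stage was below all earlier arrays. Kifc5b fell in the second step by 0.74 (SE 0.09, adjusted p = 1.78e-06), the largest second-step fall among the 36 symbols. A second Kifc5b probe, in the noise range at 22.3, 9.19 and 3.43, was called lower in the first step (-0.14, adjusted p = 0.0491) and over the interval (-0.20, adjusted p = 0.00114), and a dim Kif23 probe over the interval (-0.18, adjusted p = 0.0265).

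Kif4, on chromosome X, a chromokinesin that condenses chromosomes and with Prc1 sets the width of the central spindle, peaked at E10.5. Its embryo levels were 556, 522, 597 and 509 at E8.5, 630, 627, 633 and 636 at E10.5 and 302, 407, 391 and 381 at E12.5. The 3 stages did not overlap between embryos. Kif4 rose in the first step by 0.18 (SE 0.05, adjusted p = 0.0248) and fell in the second by 0.62 (SE 0.05, adjusted p = 6.36e-09). A second Kif4 probe took the same course, from 144 ± 43.2 through 204 ± 10.8 to 109 ± 15, with a rise of 0.31 (adjusted p = 0.00956) and a fall of 0.51 (adjusted p = 5.9e-05). The rise of the brighter probe was lost in 14 of 26 alternatives, either side alone included (0.15 with adjusted p = 0.338 on the left and 0.20 with adjusted p = 0.123 on the right), and it was lost without embryo 1, 3 or 4 of E10.5 or embryo 2 or 4 of E8.5, each taken singly (adjusted p = 0.0599 to 0.115). Under median scaling neither step of Kif4 was called (0.09 with adjusted p = 0.794 and -0.48 with adjusted p = 0.0772). The net log2FC of Kif4 was -0.44 (SE 0.05, adjusted p = 3.17e-07). This net call was lost under median scaling (-0.38, adjusted p = 0.101) and on the left sides of embryos 1 and 2 (-0.49, adjusted p = 0.0582). The net change of the second probe was not called (-0.20, adjusted p = 0.0895).

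Whether a gene changed differently in the 2 steps was tested as the second minus the first step. This was called for 4 of the 36 symbols, 1 upwards and 3 downwards, against 5.06% of all probes (2.95% upwards, 2.11% downwards); 9 symbols had an unadjusted p under 0.05. Kif1a rose more in the second step (difference 1.0, SE 0.17, adjusted p = 0.000474). Kif21a rose more in the first (-0.75, SE 0.16, adjusted p = 0.00587). Kif4 (-0.80, SE 0.09, adjusted p = 3.44e-06) and Kifc5b (-0.63, SE 0.15, adjusted p = 0.0147) turned downwards. For Kif5c the difference was 0.44 (SE 0.23, adjusted p = 0.459) and for Kif2c -0.56 (SE 0.30, adjusted p = 0.446). The calls were kept in 22 of 26 alternatives for Kif1a and for Kif4, in 18 for Kif21a and in 15 for Kifc5b, and median scaling kept Kif1a alone. On the left sides alone Kif1a and Kif4 kept the call (adjusted p = 0.0407 and 0.00865), while Kif21a and Kifc5b lost it (0.0906 and 0.0612). On the right sides alone only Kif4 kept it (adjusted p = 0.00608), with 0.0747 for Kif1a, 0.158 for Kif21a and 0.405 for Kifc5b. Kifc5b was also not called without embryo 1 or 4 of E10.5 (adjusted p = 0.0764 and 0.0977). Both steps share the arrays of E10.5.

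The 2 lists were also set against each other in every embryo. The mean log2 signal of the 15 axonal transport kinesins minus that of the 12 mitotic kinesins was -0.404, -0.328, -0.476 and -0.425 in the embryos of E8.5, -0.16, 0.001, -0.11 and -0.17 at E10.5 and 0.901, 0.606, 0.41 and 0.475 at E12.5. The 3 stages did not overlap, and the widest spread was at E12.5. The difference between the lists within a stage has no meaning, because it compares different probes. Its change between stages can be read, and was 0.30 in the first step and 0.71 in the second. The lists were made with earlier results of these data known, so this change is a description and not a test. From E8.5 to E10.5 the axonal transport mean moved from 7.876 ± 0.042 to 8.155 ± 0.051 and the mitotic mean from 8.284 ± 0.031 to 8.264 ± 0.042. From E10.5 to E12.5 both moved, to 8.566 ± 0.141 and 7.968 ± 0.081. Embryo 1 of E12.5 had the highest axonal transport mean and the lowest mitotic mean of its stage, and also the highest sum of neuron markers (23198, against 14881 to 15634 in the other 3) and the lowest sum of spindle partners (14901, against 18728 to 21177). It stood apart in other tissues too, with a sum of 35.6 for markers of surface ectoderm and epithelium, against 2378 to 2699, of 1120 for cranial mesenchyme, against 2599 to 3342, and of 41341 for erythroid markers, against 49440 to 62785. The part of these markers in the shift was not tested.

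**Figure D4:**
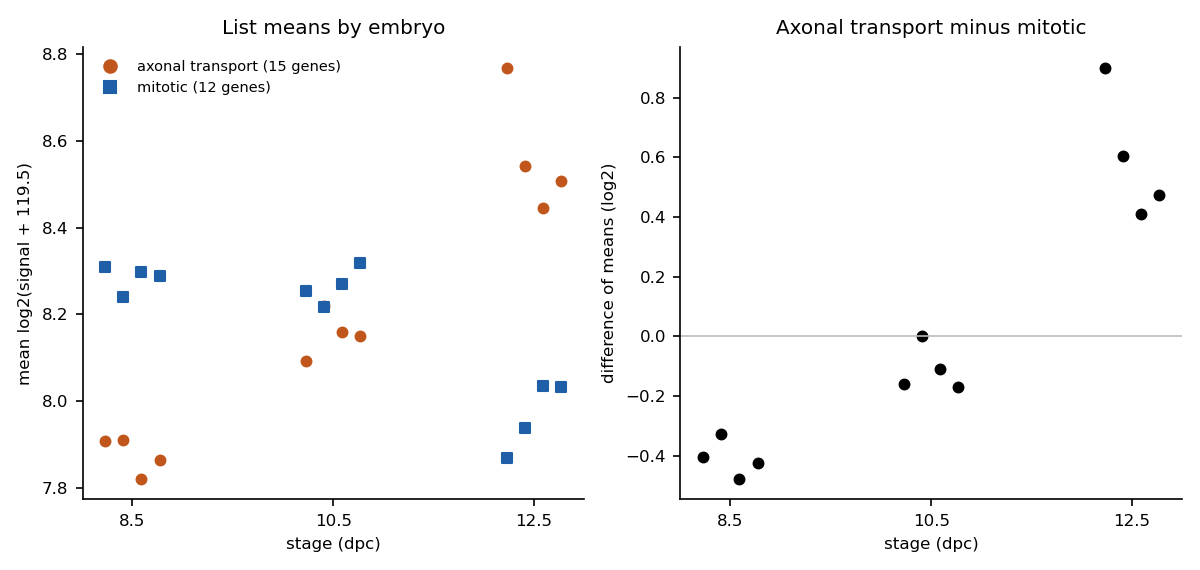
Mean log2(signal + 119.5) of the 15 axonal transport and 12 mitotic kinesins in each of 12 embryos (left panel) and the difference of the 2 means (right panel), by stage in dpc. The difference climbs from about -0.4 at E8.5 to between 0.41 and 0.901 at E12.5. Only its change between stages can be read, as a description, because the lists were made with earlier results of these data known.

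The 9 other symbols had median log2FC values of 0.00, -0.03 and -0.03. Kif12 (35.2 ± 7.09 at E8.5 and 32.2 ± 4.19 at E12.5), Kif27, a relative of the Hedgehog regulator Kif7 (40.4 ± 13.0 and 41.7 ± 9.82), and Kifc3, a minus-end-directed motor of epithelial junctions (53.0 ± 5.16 and 41.4 ± 4.52), were above the noise limit, and none of them was called. The remaining 6, Kif2a among them, were not above it at any stage.

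The partners of the axonal motors rose with them in part. Of 19 measured light chains, Kifap3 and cargo adaptors, 6 rose and 2 fell in the first step, 6 rose and 1 fell in the second, and 9 were higher and 4 lower in E12.5 versus E8.5, with a median net log2FC of 0.29. Of all probes 10.7%, 10.4% and 20.8% were called in these comparisons. Fez1, an adaptor of conventional kinesin that supports axon outgrowth, went from 669 ± 109 through 3289 ± 650 to 6306 ± 742 (net log2FC 3.03, SE 0.12). Klc1, the neuronal light chain that links Kif5 motors to cargo, went from 99.5 ± 7.88 through 376 ± 79.9 to 938 ± 192 (2.25, SE 0.10). Hap1, the huntingtin-associated adaptor, and Mapk8ip2, a scaffold of the JIP family, had net values of 1.80 and 1.60. Lower were Dtnb (-0.48), Rhot2 (-0.44), Klc3 (-0.43) and Ranbp2 (-0.13). Rhot2 anchors motors to mitochondria, and its relative Rhot1 was called higher instead (0.24).

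Cytoplasmic dynein, the motor for the way back, and its cofactor dynactin had 20 measured genes. Of these 4 rose and 1 fell in the first step, 7 rose and 1 fell in the second, and 12 were higher and 1 lower over the whole interval, with a median net log2FC of 0.25, beside the same 10.7%, 10.4% and 20.8% of all probes. Dynlrb1 (1.08), the light intermediate chain Dync1li2 (0.92), the dynactin filament subunit Actr1a (0.83) and Dctn4 (0.80) had the highest values. The lower gene was Nde1, a dynein regulator needed for the divisions of neural progenitors, which went from 985 ± 128 through 1083 ± 61.6 to 595 ± 81.9 and fell in the second step by 0.75 (SE 0.09, adjusted p = 1.15e-06).

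The spindle and cytokinesis partners moved with the mitotic kinesins. Of 23 measured genes 1 rose and 0 fell in the first step, 0 rose and 12 fell in the second, and 0 were higher and 10 lower over the interval, with a median net log2FC of -0.46. Over all probes 4.51% were called lower in the second step and 11% over the interval. Plk1, a kinase of mitotic entry, fell from 3125 ± 276 at E8.5 and 2657 ± 156 at E10.5 to 1410 ± 263 at E12.5 (net log2FC -1.10, SE 0.09). Birc5, a subunit of the chromosomal passenger complex, had a net value of -1.01, Cdc20, the activator of the anaphase ubiquitin ligase, -0.98 and Incenp, the passenger scaffold, -0.92. Cenpe, itself a kinesin that carries chromosomes to the metaphase plate but whose symbol the rule does not match, went from 2772 ± 378 through 2471 ± 290 to 1551 ± 223 (net log2FC -0.79, SE 0.10). The gene that rose in the first step was Prc1, the partner of Kif4, which went from 3382 ± 203 to 3987 ± 275 (0.23, adjusted p = 0.0206) and fell back to 3291 ± 338 (-0.27, adjusted p = 0.00602). The summed neuron marker level given above moved with the axonal transport kinesins and their partners, and its part was not tested.

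Left and right sides of the head were compared within embryos. Over the 12 embryos 0 of the 36 symbols were called, against 0% of all probes, and 2 had an unadjusted p under 0.05. Kif3c was higher on the left in 8 of 12 embryos (mean log2 difference 0.19, SE 0.07, adjusted p = 0.502; exact two-sided sign-flip permutation test over 4096 patterns, p = 0.0459). The other was Kif20a, whose probe was not above the noise limit, so that no difference is read from it. Neither passed the correction over all probes. Within a stage and for the interaction of stage and side 0 symbols were called as well, with 0% of all probes, and at most 1 symbol had an unadjusted p under 0.05 in each of these tests.

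Most called symbols differed between the sides in opposite ways in the 2 pairs of embryos. In embryos 1 and 2 alone 8 symbols were called between the sides, against 9.44% of all probes, and in embryos 3 and 4 alone 10, against 18.6% of all probes. In all, 11 symbols were called in at least 1 pair of embryos, 7 of them in both, and all 7 had opposite signs. The share of all probes with opposite signs was not counted. Because 0% of all probes were called over all embryos together, opposite signs were likely from the start. They are not read as a trait of kinesins. Kif20a and Kif20b, among the 11, were not above the noise limit. Kif3a was lower on the left in 6 of 6 of the former embryos (mean log2 difference -0.26, adjusted p = 0.0134) and higher on the left in 6 of 6 of the latter (0.59, adjusted p = 2.57e-06). Kif2c was higher on the left in 6 of 6 (0.24, adjusted p = 0.00842) and then lower in 6 of 6 (-0.45, adjusted p = 0.00246). Kif3c differed only in embryos 3 and 4 (0.40, adjusted p = 0.00131, against -0.03 in embryos 1 and 2). The pairs of embryos are those that split the right-side arrays above, and what the array sets share was not tested. No kinesin held a called difference of 1 sign in both pairs of embryos.

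**Figure D5:**
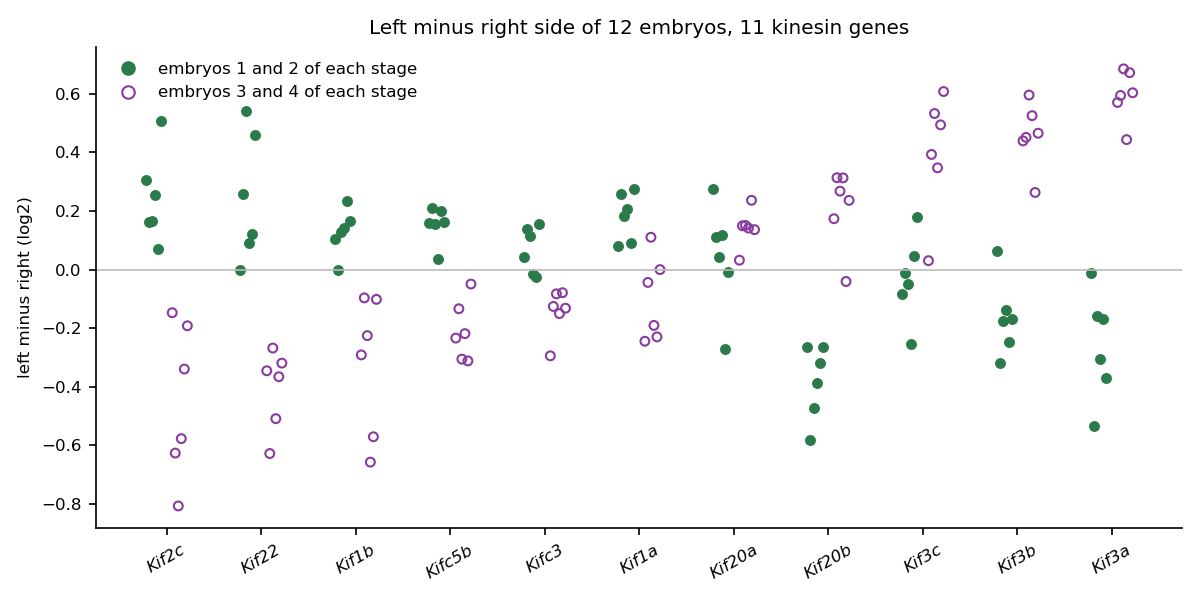
Left minus right log2 signal of each of 12 embryos for the 11 kinesin symbols called in at least 1 pair of embryo numbers; filled points are embryos 1 and 2 of each stage, open points embryos 3 and 4. For 10 of the 11 the mean lies on opposite sides of 0 in the 2 sets, as for Kif3a (-0.26 and 0.59). The share of all probes that did so was not counted.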

How the data were processed

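Total RNA of each side of the head was hybridised to Illumina mouse WG-6 arrays. The authors deposited probe intensities that were not normalized, some of them below 0, made with GenomeStudio per the submitters' processing notes (no version given in the sources used here). Array medians were 3.1 to 9.3 and means 149.1 to 323.2; the number of arrays limits the precision. From these intensities, 119.5 was added to raise the lowest value, -103.5, to 16, and arrays were quantile normalized and taken to log2.

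Stage and side were fitted with limma 3.58.1 (R 4.3.3, statmod 1.5.0), with the embryo as a random block (correlation 0.0893) and eBayes with a proportion of 0.01. For left against right, embryo was a fixed term instead. P-values were adjusted over 46643 probes. Probes took gene names from the platform annotation (32794 with 1 symbol, 55 with several, 13794 with none), and 35 of 36 kinesin IDs matched RefSeq. Every member was measured by its brightest probe, and members called in the net comparison were described in full. Members and lists were chosen with earlier results of these data known. The replicates are separate embryos. Samples of the same replicate number at different stages deviated together (12 pairs, r 0.302 to 0.699, median 0.609; other pairs -0.717 to 0.752, median -0.465), which comes from the data and not from the labels, so the replicate number was also fitted as a block. Other alternatives changed the scaling, the constant, the probe of a gene, the lists, the arrays and the sides used. A further table with 72 columns not tied to a sample was not used, and protein sequences were not analysed here.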

Additional observations from a re-analysis of the deposited data

How the results depend on the processing

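Of 884 values of named genes under 26 alternatives, 796 kept their direction and side of the threshold, 87 lost the call, 1 gained it (Kif3a in the first step with the mean of all probes, 0.24, adjusted p = 0.0472) and 0 reversed. The first step called 6 genes, but 3 with median scaling, 2 on the right sides alone, and 1 each on the left and the right sides of embryos 1 and 2. The second step called 11, but 7 on the right sides alone and on the left sides of embryos 1 and 2, and 7 to 12 when 1 embryo was left out. With 1 mean per embryo, 4, 9 and 11 genes were called in the first step, the second step and the net comparison. That setting lost the first step of Kif1a (adjusted p = 0.139) and Kif4 (0.142). It also lost the second step of Kif3a (0.111) and Kif21a (0.109) and the net call of Kif5a (0.0557). The second minus the first step called 4, but 1 with median scaling or on the right sides alone, 2 with embryo means, 9 with the array set as a block, and 0 on the left sides of embryos 1 and 2, the left sides of embryos 3 and 4 or the right sides of embryos 1 and 2. Left against right called 0, but 8 in embryos 1 and 2 and 10 in embryos 3 and 4. The cause of these differences was not tested. With the replicate number as a block, 7, 12, 13 and 6 genes were called in the first step, the second step, the net comparison and the difference of steps, and no call of a named gene was lost. The change of the axonal transport minus the mitotic mean was 0.71 in the second step, but 1.02 with signals below 1 raised to 1, 0.91 with brighter probes only, 0.48 with the mean of all probes and 0.90 with stricter lists. Over the whole interval it was 1.01, but 1.39, 1.26, 0.68 and 1.31. Dim probes limit the mitotic list, of which 7 of 12 genes gave no signal above noise.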

Other observations

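Of the dynein subunits, Dync1i1, the neuronal intermediate chain, was lowest at E10.5, with levels of 59.0, 29.0 and 58.3 at the 3 stages (log2FC -0.26, adjusted p = 0.00138, then 0.26, adjusted p = 0.00153). Its probe is dim, and the level at E10.5 lay near the noise limit. Among the markers of other cell types, 5 of 8 measured erythroid genes were called higher in the first step and 5 lower in the second, and 5 of 7 muscle genes were called lower in the first step. Of all probes 4.91% were called higher and 5.8% lower in the first step, and 4.51% lower in the second.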
